A study of Mus musculus with 2 samples.

Results

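The genes described here are 42 genes of protein folding in the endoplasmic reticulum (ER) and of the integrated stress response, measured in mouse neural stem cells. They were chosen by name and function, with earlier results of these data known. The groups were 13 ER chaperones and folding enzymes, 7 genes of ER-associated degradation (ERAD), and 3 stress sensors with the transcription factor gene Xbp1 (4 genes). The rest were 10 stress factors and targets of the ATF4 type, and 8 amino acid and one-carbon synthesis genes of the ATF4 type. All 42 were found among the 15953 genes of the deposited table, and 41 reached 1 CPM (reads per 1000000 reads counted) in both libraries. The exception was Derl3, with 1 read under the cKO label and 3 under the wild-type label.

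Total RNA came from neural stem cells in suspension culture. There was 1 library from cells labelled Wild_Type and 1 from cells labelled Hikeshi_cKO, a conditional knockout of Hikeshi, the carrier that takes HSP70 chaperones into the nucleus. The Cre driver, the deleted exons, the age and sex of the animals and any pooling of animals or cultures are not stated in the labels used here. With 1 library per genotype no test between genotypes was possible, so every difference below separates these 2 libraries, and "higher" or "lower" always refers to the library labelled cKO against the library labelled wild type. Ratios are given with a 95% interval (exact, conditional binomial, from the reads), which covers counting error only.

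When unfolded proteins build up in the ER, the sensors PERK, IRE1 and ATF6 start the unfolded protein response. ATF6 and the spliced form of XBP1 turn on chaperone and degradation genes, while PERK phosphorylates the translation factor eIF2alpha, which favours translation of ATF4. Other kinases reach the same step from amino acid shortage, haem shortage or viral RNA, and this common branch is called the integrated stress response. Much of ATF4 and XBP1 activity is set by translation and splicing, which gene-level read counts do not show.

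The library labelled cKO held 18912700 reads and the other 18839088. Hikeshi itself had 640 and 718 reads, a ratio of 0.888 (interval 0.797 to 0.989), which does not settle the genotype because a conditional allele can leave other exons transcribed. The libraries also differed in 4 Y-linked genes, with 305 to 1265 reads under the cKO label and 0 or 1 under the wild-type label, and in the heat shock genes Hspa1a (2027 against 116 reads) and Hspa1b (2075 against 68). Neural stem cell markers were present in both, with 8 of 8 kept (median -0.16). By 1.5-fold or more 1 of the 8 was higher and 3 lower, beside 4.22% and 10.2% of all genes kept. The summed level of these markers was 7278 CPM (cKO) and 5976 CPM (wild type), of which Vim alone gave 4578 and 2716 CPM. Fabp7 (1.51-fold), Sox9 (1.66-fold) and Prom1 (1.92-fold) were lower. Among oligodendrocyte lineage markers 9 of 11 were lower by 1.5-fold or more and 0 higher, beside 10.2% and 4.22% of all genes kept. Their sums were 2316 CPM (cKO) and 3683 CPM (wild type). All 8 astrocyte markers were at least 1.5-fold lower (10.2% of all genes kept were), with sums of 2315 and 4602 CPM. Of 7 neuronal markers kept 1 was higher and 2 lower by that much (sums of 573 and 702 CPM), beside 4.22% and 10.2% of all genes kept. Microglia, endothelial and fibroblast or pericyte markers that were kept summed to at most 10.1 CPM in either library. Of the microglia genes, Cx3cr1 and Csf1r each had 0 reads (cKO) and 1 read (wild type), and Tmem119 had 1 and 0. P2ry12 had 4 and 5 reads, and Cd68, the only 1 of these genes kept, had 91 and 56. In RNA from whole cultures, fewer cells of a type and less RNA per cell cannot be told apart. The part of cell makeup and of sex-linked expression in the differences below was not tested.

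Some promoters of these genes carry letters by which the branches are usually told apart, so these letters are shown first. RefSeq promoter windows (GRCm38.p6, 250 bases before to 50 after the start) were matched for 37 of the 42 genes, and Hyou1, Hspa13, Manf, Derl1 and Atf6 had none in the table used. The ER stress element, ERSE, is CCAAT followed by 9 free bases and CCACG, and on the other strand it reads CGTGG, 9 bases, then ATTGG. It is read by ATF6 together with NF-Y. On either strand it was found in 8 of the 37 genes (21.6%) and in 21 of 12643 table genes with a window (0.166%), so the members made up 8 of those 21. The holders were the chaperone genes Hspa5, Hsp90b1, Calr, Canx, Pdia6 and Creld2 and the ERAD genes Syvn1 and Derl3. Textbook ER stress genes are partly defined by this element, so the overlap describes the choice of genes. Herpud1 held the short form, ERSE-II (ATTGG, 1 free base and CCACG), found in 10 of the 12643 genes (0.0791%). The stretches below are 5′ to 3′ on the strand of the gene, end before the start site, and have the element in capitals. They are shown because the values of their genes differed in direction.

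Hspa5 (chr2:34772009-34772059, + strand): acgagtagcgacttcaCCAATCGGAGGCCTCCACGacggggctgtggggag
Hsp90b1, farther element (chr10:86705622-86705672, - strand): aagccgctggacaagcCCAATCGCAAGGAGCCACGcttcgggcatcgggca
Hsp90b1, nearer element (chr10:86705517-86705567, - strand): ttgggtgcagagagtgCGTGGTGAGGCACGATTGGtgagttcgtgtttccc
Calr (chr8:84847059-84847109, - strand): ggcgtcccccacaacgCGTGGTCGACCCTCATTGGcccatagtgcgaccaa
Canx (chr11:50325784-50325834, - strand): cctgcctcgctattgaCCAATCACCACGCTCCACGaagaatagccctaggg
Pdia6 (chr12:17266475-17266525, + strand): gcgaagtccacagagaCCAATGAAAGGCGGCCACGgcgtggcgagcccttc
Creld2 (chr15:88819504-88819554, + strand): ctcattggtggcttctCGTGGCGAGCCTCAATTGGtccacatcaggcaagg
Syvn1 (chr19:6046516-6046566, + strand): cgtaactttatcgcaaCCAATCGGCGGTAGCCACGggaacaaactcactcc
Herpud1, short form (chr8:94386361-94386403, + strand): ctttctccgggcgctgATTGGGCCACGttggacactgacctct

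The second element is the composite C/EBP and ATF site, searched as TGATGNAA on both strands. It is the site through which ATF4 with a C/EBP partner acts. It was found in 7 of the 37 genes (18.9%) and in 367 of the 12643 table genes (2.903%). Genes of the ATF4 type were picked as members, so this overlap too describes the choice of genes. The holders were Chac1, Atf3, Trib3, Nupr1, Asns and Pycr1 among the ATF4-type genes, and Herpud1. In Trib3 the match lay after the start site and is not shown. The other 6 are given in the same form, with the 8 letters of the site in capitals. No window of the 37 held both the full ERSE and this site. A further motif searched, the ATF6-type TGACGTG, was found in 1 of the 37 genes (2.70%, Hspa5). Among the 12643 table genes 382 held it (3.02%).

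Chac1 (chr2:119351033-119351072, + strand): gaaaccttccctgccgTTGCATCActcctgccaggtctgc
Atf3 (chr1:191183420-191183459, - strand): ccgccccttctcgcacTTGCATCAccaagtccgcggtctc
Nupr1 (chr7:126625557-126625596, - strand): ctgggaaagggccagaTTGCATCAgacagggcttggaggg
Asns (chr6:7693210-7693248, - strand): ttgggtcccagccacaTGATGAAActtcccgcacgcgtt
Pycr1 (chr11:120643828-120643867, - strand): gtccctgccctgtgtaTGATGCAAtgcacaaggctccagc
Herpud1 (chr8:94386301-94386340, + strand): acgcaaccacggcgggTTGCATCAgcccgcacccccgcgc

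A match of letters is a description of the window and not a site shown to be bound. Among holders of the ERSE with values kept, Hspa5, Hsp90b1 and Pdia6 were higher beyond counting error, Calr was lower, and Canx, Creld2 and Syvn1 had intervals that included 1. Among holders of the C/EBP and ATF site Atf3 was higher, Chac1, Trib3 and Pycr1 lower, and Nupr1, Asns and Herpud1 had intervals that included 1. Neither set of promoters went with a single direction.

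Levels differed widely within the groups, as the deposited TPM values, which are per transcript length, show. The most abundant member was Calr, at 737 TPM (cKO) and 790 TPM (wild type), followed by Manf at 538 and 493 TPM. Hspa5 came next under the cKO label at 461 TPM (374 under the wild-type label), while under the wild-type label Phgdh at 420 TPM (365), Atf4 at 398 TPM (384) and Psat1 at 382 TPM (392) stood above it. At the low end were Ern1, at 2.25 and 1.99 TPM, and Derl3, at 0.09 and 0.29 TPM. Summed over the 13 chaperones the level was 3622 TPM (cKO) and 3441 TPM (wild type), against 583 and 639 TPM for the 10 stress factors and targets.

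**Figure D1:**
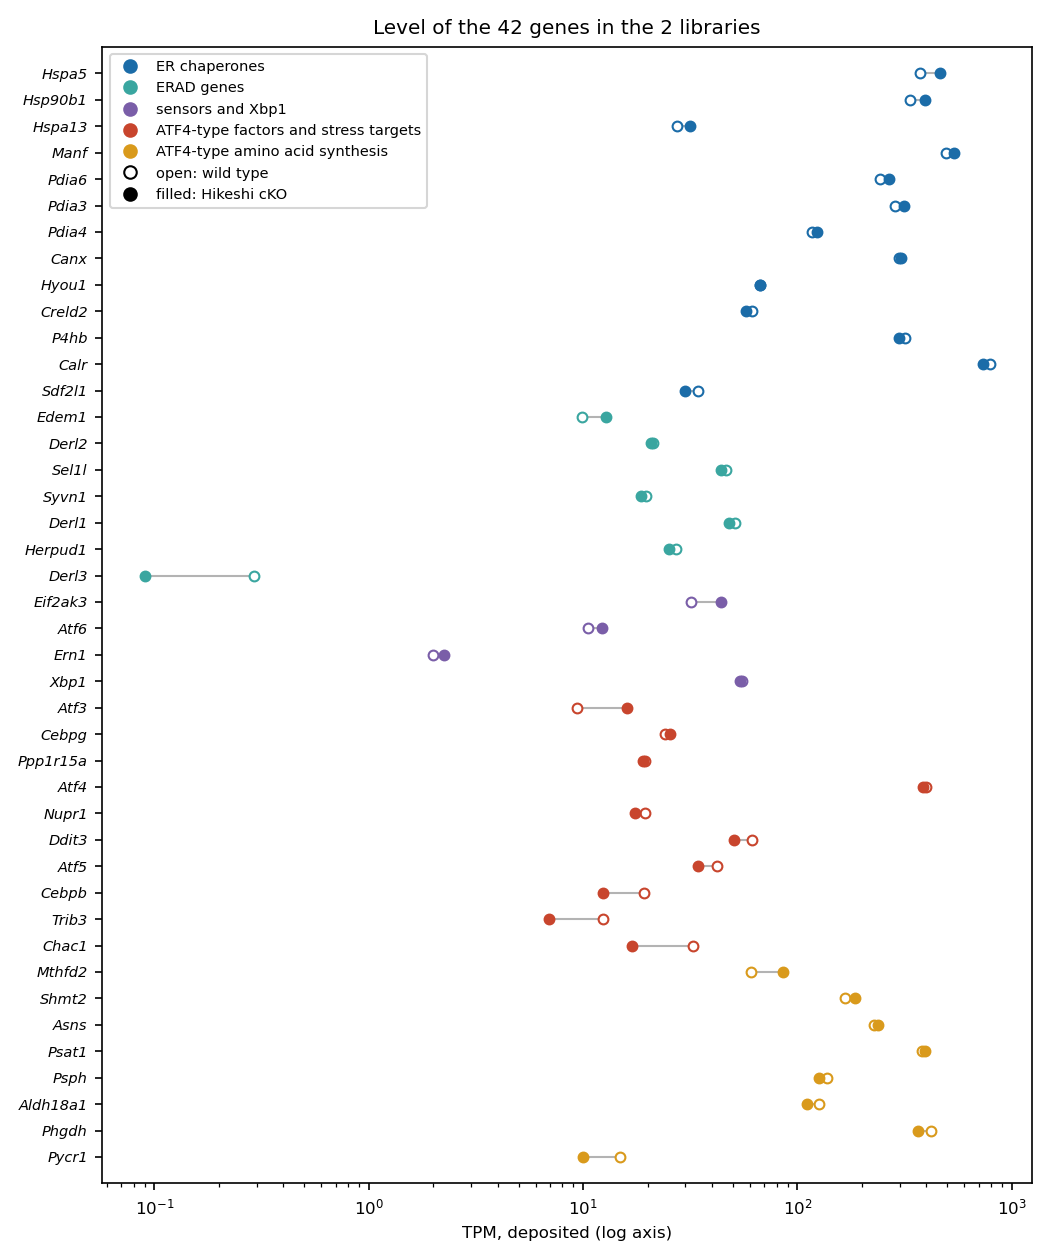
Deposited TPM (log axis) of the 42 genes, coloured by group, with an open point for the library labelled wild type and a filled point for the library labelled cKO. Calr is the highest at 737 and 790 TPM, Derl3 the lowest, and most pairs of points nearly touch.

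Among the ER chaperones Hspa5 and Hsp90b1 were modestly higher, while Calr, which encodes calreticulin, and P4hb were slightly lower. None of the 13 was 1.5-fold apart or more on the scale of log2(CPM + 1), where 4.22% of the 12618 genes kept were higher and 10.2% lower by that much. The median difference was 0.07 on that scale, against -0.02 over all genes kept. Of the 13 genes, 6 had a counting interval above 1 and 2 an interval below 1, while 28.1% and 31.2% of all genes did so. Deeply read genes such as these have narrow intervals, so these shares are not matched for depth. Interval shares of the groups and lists below are not matched for depth either. The summed level was 4578 CPM (cKO) and 4350 CPM (wild type), a ratio of 1.05 (1.04 to 1.06).

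Hspa5, which encodes BiP, the HSP70 of the ER lumen and a brake on all the sensors, had 634 CPM (cKO) and 514 CPM (wild type), from 11992 and 9689 reads. This ratio of 1.23 (1.2002 to 1.27) was the highest of the chaperone group. Hsp90b1, which encodes the HSP90 of the ER (GRP94), had 595 and 508 CPM, a ratio of 1.17 (1.14 to 1.204). Hspa13, an HSP70-like protein of microsomes, had 72.5 and 63.5 CPM, a ratio of 1.14 (1.06 to 1.23). By contrast Hyou1, a nucleotide exchange factor that works on BiP, had 171.0 and 170.9 CPM. Its ratio of 1.0004 (0.953 to 1.05) was the nearest to 1 of all members. Hspa5 and Hyou1 thus had different values in these libraries, with intervals that did not overlap.

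The disulfide isomerases, which form and rearrange disulfide bonds, had ratios on both sides of 1. Pdia3, which works with the lectin chaperones, had 449 CPM (cKO) and 410 CPM (wild type), a ratio of 1.0956 (1.06 to 1.13). Pdia6 was alike at 303 and 275 CPM, a ratio of 1.0994 (1.06 to 1.14). Pdia4 had 165 and 157 CPM, and its ratio of 1.05 (0.9995 to 1.11) included 1. P4hb, the founding isomerase and also a subunit of collagen prolyl hydroxylase, was lower, at 467 and 499 CPM (ratio 0.935, 0.908 to 0.963). Its difference of -0.10 on the log2(CPM + 1) scale became -0.03 with the trend of all genes with GC content removed, where Pdia3 and Pdia6 both stood at 0.15. Of the calcium-binding lectin chaperones, Calr had 742 CPM (cKO) and 795 CPM (wild type), a ratio of 0.933 (0.911 to 0.954), whereas its membrane-bound relative Canx had 742 and 731 CPM (1.01, 0.991 to 1.04). With the GC trend removed the pair no longer differed in this way, with -0.08 for Calr and -0.07 for Canx.

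Among the smaller ER stress genes, Manf, a secreted neurotrophic factor kept in the ER by BiP, had 186 CPM (cKO) and 168 CPM (wild type), a ratio of 1.1025 (1.05 to 1.16). Creld2, an ER protein induced by stress, had 37.4 and 39.8 CPM (0.942, 0.848 to 1.04). Sdf2l1, which helps the BiP cycle, had 14.7 and 16.9 CPM (0.871, 0.739 to 1.03), the lowest ratio of the chaperone group but with an interval that included 1.

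**Figure D2:**
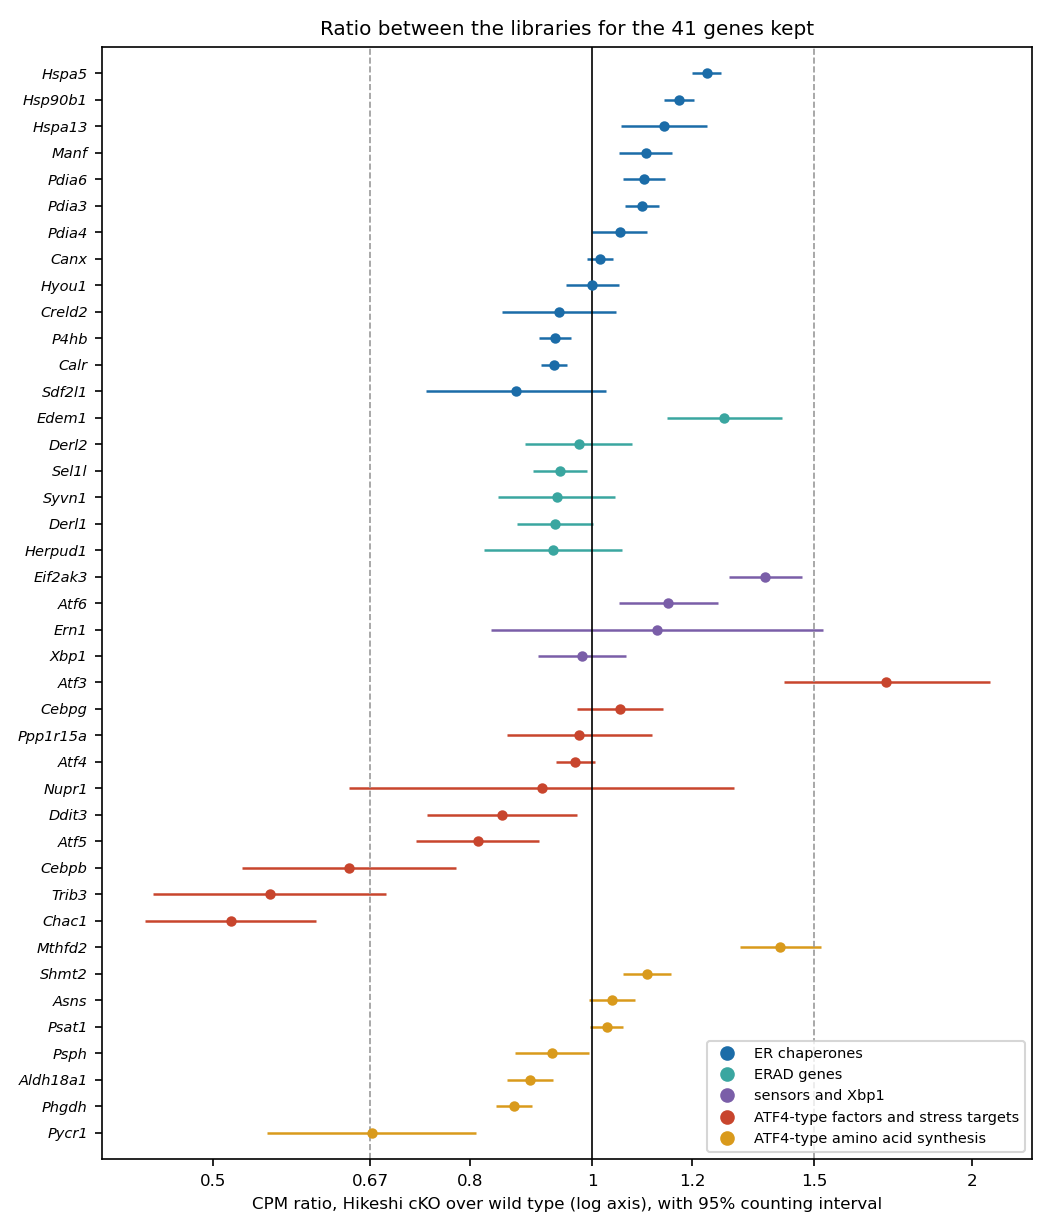
CPM ratio of the library labelled cKO over the library labelled wild type (log axis) for the 41 genes kept, with 95% counting intervals, a solid line at 1 and dashed lines at 1.5-fold either way. The chaperones lie between 0.871 and 1.23, while the stress factors and targets spread from 0.517 (Chac1) to 1.71 (Atf3).

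ERAD genes, which recognise misfolded proteins and pass them out of the ER to the proteasome, were close to equal except Edem1. Of 6 kept, 1 lay above 0 (47.8% of all genes kept did) and 0 were at least 1.5-fold apart (14.4% of all genes kept), with a median difference of -0.09. For 4 of the 6 the counting interval included 1. Intervals lay above 1 for 1 gene and below 1 for 1 (16.7% each), beside 28.1% and 31.2% of all genes kept. Edem1, a mannosidase-like protein that picks out misfolded glycoproteins, had 43.04 CPM (cKO) and 33.8 CPM (wild type), a ratio of 1.27 (1.15 to 1.41). Sel1l, the adaptor of the HRD1 ubiquitin ligase, was the only ERAD gene whose interval lay below 1, at 161 and 171 CPM (ratio 0.943, 0.897 to 0.991). The ligase gene Syvn1 (HRD1) had a ratio of 0.937 (0.842 to 1.04) and its scaffold gene Herpud1 one of 0.9305 (0.8201 to 1.06). The derlin genes, for membrane proteins of the exit channel, had ratios of 0.935 for Derl1 (0.872 to 1.0016) and 0.976 for Derl2 (0.884 to 1.08). The reads of Derl3 give a ratio of 0.332 with an interval of 0.00632 to 4.14, so no difference was detectable at this depth.

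Of the 3 sensors, 2 had intervals above 1, as 28.1% of all genes kept did, and Xbp1 did not. Eif2ak3, which encodes PERK, had 111 CPM (cKO) and 81.2 CPM (wild type), from 2106 and 1529 reads. Its ratio of 1.37 (1.28 to 1.47) was the highest outside the ATF4-type groups. Atf6, the membrane-held transcription factor of the chaperone branch, had 53.9 and 46.9 CPM (1.15, 1.05 to 1.26). Ern1, which encodes IRE1alpha, had 96 and 85 reads, and its ratio of 1.13 (0.831 to 1.52) could not be told from 1 at this depth. Xbp1, whose mRNA IRE1 splices, had 64.3 and 65.5 CPM (0.982, 0.906 to 1.06). The splicing itself cannot be read from gene counts. The median difference of the 4 genes was 0.17, and 0 of 4 were at least 1.5-fold apart (14.4% of all genes kept).

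The ATF4-type factors and stress targets had the widest spread of the 5 groups. Of 10 genes, 5 had intervals below 1 (50%, beside 31.2% of all genes kept). For 1 the interval lay above 1 (10%, beside 28.1%), and for 4 it included 1. By 1.5-fold or more 3 were lower and 1 higher, beside 10.2% and 4.22% of all genes kept. The median difference was -0.17, and -0.10 after removal of the trend with GC content described below. The genes past 1.5-fold were Chac1, Trib3 and Cebpb on the lower side and Atf3 on the higher side, and they were the only ones among all 41 members (4 of 41, where 14.4% of all genes kept were that far apart either way). No member was 2-fold apart, a limit that 1.25% of all genes kept passed on the higher and 3.85% on the lower side. Cebpb lay just past the limit (difference -0.59) and Pycr1, of the synthesis genes, just short of it (-0.54).

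Atf4 itself, the factor at the centre of the response, had 307 CPM (cKO) and 317 CPM (wild type), from 5810 and 5967 reads. Its mRNA was thus near equal, with a ratio of 0.9699 (0.935 to 1.0058). Chac1, a glutathione-degrading enzyme induced by ATF4, had 13.1 and 25.4 CPM from 248 and 478 reads, and ranked 592 of 12618 from the lowest difference. Trib3, a pseudokinase that feeds back on ATF4, had 7.402 and 13.3 CPM from 140 and 251 reads and ranked 821. These were the lowest ratios of the 41 members kept, at ratios of 0.517 and 0.556. Atf3, a factor induced by ATF4 and by many other stresses, went the other way, at 16.4 CPM (cKO) and 9.61 CPM (wild type) from 311 and 181 reads, and ranked 341 from the highest. Its ratio was 1.71 (1.42 to 2.07).

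Cebpb, a C/EBP factor that can pair with ATF4, had 9.2002 and 14.3 CPM, a ratio of 0.642 (0.527 to 0.7796). Its relative Cebpg, the other C/EBP factor here and a known ATF4 partner, had 68.8 and 65.4 CPM (1.05, 0.972 to 1.14). The interval of the first lay wholly below that of the second. Atf5, like ATF4 under translational control, had 30.1 CPM (cKO) and 37.2 CPM (wild type), a ratio of 0.811 (0.725 to 0.907). Atf5 overlaps Nup62 (1515 and 1208 reads) on the opposite strand, and without a stated strand setting their shared reads cannot be told apart. The same limit holds for the overlaps of Hspa5 with Rabepk (235 and 259 reads), Derl2 with Mis12 (605 and 620), Syvn1 with Mrpl49 (853 and 924) and Psph with Cct6a (8907 and 6888).

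Ddit3, which encodes the pro-apoptotic factor CHOP, had 20.6 and 24.3 CPM (0.848, 0.739 to 0.973). Its value is uncertain: the table gives 390 and 458 reads for Ddit3 and 391 and 459 for its overlapping neighbour Mbd6. Of 968 pairs of overlapping genes with at least 100 reads each in both libraries, 2 had counts within 1 read of each other in both, this pair among them. Whether the same reads stand behind both genes was not tested. Ddit3 also overlaps Mars1 (4000 and 3472 reads) by 71 bases, and the part of that overlap was not tested either. Ppp1r15a, which encodes GADD34, the subunit that reverses eIF2alpha phosphorylation, had 23.7 and 24.3 CPM (0.976, 0.855 to 1.11). Nupr1, a small stress-induced chromatin protein, had 65 and 71 reads (0.912, 0.641 to 1.2951).

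The ATF4-type synthesis genes were abundant and divided within single pathways. Of 8 genes, 4 lay above and 4 below 0, where 47.8% of all genes kept lay above. Intervals lay above 1 for 2 (25%) and below 1 for 4 (50%), beside 28.1% and 31.2% of all genes kept. None of the 8 was at least 1.5-fold apart, where 14.4% of all genes kept were. The median of the 8 was -0.03, and 0.0018 without the GC trend. In serine synthesis, Phgdh, the first enzyme, had 351 CPM (cKO) and 404 CPM (wild type), a ratio of 0.867 (0.839 to 0.896). Psat1, the second enzyme, had 450.1 and 438 CPM (1.03, 0.996 to 1.06), and Psph, the last, 87.5 and 94.1 CPM (0.9298, 0.869 to 0.995). Both members of the mitochondrial one-carbon route were higher. Shmt2, which splits serine, had 227 and 206 CPM (1.11, 1.06 to 1.15). Mthfd2, the next enzyme, had 92.7 CPM (cKO) and 65.8 CPM (wild type) from 1754 and 1239 reads, and at 1.41 (1.31 to 1.52) had the highest ratio of the synthesis genes. Phgdh and these mitochondrial members thus stood on opposite sides of 1, also with the GC trend removed (-0.13 for Phgdh, 0.24 for Shmt2 and 0.51 for Mthfd2). A pair of further mitochondrial genes of the route, named after their values were seen, differed in direction: Mthfd1l had a ratio of 1.33 (1.24 to 1.42) and Aldh1l2 one of 0.838 (0.778 to 0.902).

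Proline synthesis genes were lower. Aldh18a1, which makes the proline precursor, had 219 and 245 CPM (0.893, 0.856 to 0.932), and its difference went from -0.16 to -0.08 with the GC trend removed. Pycr1, which completes proline, had 9.83 CPM (cKO) and 14.7 CPM (wild type) from 186 and 277 reads, a ratio of 0.669 (0.552 to 0.808). Asns, asparagine synthetase and a classic ATF4 target, had 241 and 232 CPM (1.04, 0.994 to 1.08). Asns, Chac1 and Trib3 are all known targets, yet the interval of Asns lay above those of Chac1 (0.442 to 0.604) and Trib3 (0.449 to 0.686).

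Taking both ATF4-type groups as 1 set of 18 and the other 23 kept members as another, 6 of 18 and 13 of 23 lay above 0, where 47.8% of all genes kept did. Intervals lay below 1 for 9 of the 18 (50%) and 3 of the 23 (13.0%), beside 31.2% of all genes kept. They lay above 1 for 3 (16.7%) and 9 (39.1%), beside 28.1% of all genes kept. The medians were -0.10 and 0.02, and the summed CPM ratios 0.974 (0.961 to 0.988) and 1.05 (1.04 to 1.06). The sets also differed in median GC content (55.2% and 50.2%). With the GC trend removed, the group medians within the first set were -0.10 (factors and targets) and 0.0018 (synthesis genes). Those within the second set were 0.10 (chaperones), -0.06 (ERAD genes) and 0.15 (sensors with Xbp1). The remaining part of GC content in this contrast was not tested. The lowest values of the first set were those of Chac1, Trib3, Cebpb and Pycr1, and the highest of the second those of Eif2ak3, Edem1 and Hspa5.

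Other genes of the same pathways were read as 5 lists. Of 25 further ER folding genes 0 were higher and 2 lower (8%) by 1.5-fold or more, beside 4.22% and 10.2% of all genes kept. Intervals lay above 1 for 4 (16%) and below 1 for 7 (28%), beside 28.1% and 31.2% of all genes kept. The median was -0.03, and -0.06 without the GC trend. Ero1a, the oxidase that recharges the disulfide isomerases and also a known hypoxia-induced gene, had 1848 and 5037 reads and was 2.74-fold lower (2.59 to 2.89). Clgn, a calnexin relative best known from testis, had 88 and 150 reads and was 1.71-fold lower (1.31 to 2.25). Of 25 further ERAD and ER entry genes 0 were 1.5-fold apart (14.4% of all genes kept), and the median was -0.06. Intervals lay above 1 for 5 (20%) and below 1 for 12 (48%), beside 28.1% and 31.2% of all genes kept. Of 19 kept genes for other stress kinases, ATF6 proteases and eIF2 control, 0 were 1.5-fold apart (14.4% of all genes kept). Of these 19, 4 had intervals above and 4 below 1 (21.1% each, beside 28.1% and 31.2% of all genes kept). Their median was 0.03, and 0.05 without the GC trend.

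Among the kinases that, like PERK, phosphorylate eIF2alpha, only the haem-regulated Eif2ak1 had an interval off 1, at 59.3 CPM (cKO) and 70.6 CPM (wild type), a ratio of 0.8403 (0.775 to 0.9105). The amino acid sensor Eif2ak4 (GCN2) had a ratio of 1.03 (0.912 to 1.15) and the RNA-activated Eif2ak2 (PKR) one of 1.0039 (0.869 to 1.16). The interval of Eif2ak3 lay above those of all the other kinases.

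Aminoacyl-tRNA synthetases, many of them ATF4 targets, were slightly higher as a list. Of 19 listed genes 16 lay above 0 (84.2%, beside 47.8% of all genes kept), with a median of 0.13. Intervals lay above 1 for 13 (68.4%, beside 28.1% of all genes kept), shares that are not matched for depth. None was at least 1.5-fold apart, where 14.4% of all genes kept were. Amino acid transporters and other ATF4-type targets spread far more widely. By 1.5-fold or more, 2 of 29 kept were higher (6.9%) and 5 lower (17.2%), beside 4.22% and 10.2% of all genes kept. Intervals lay above 1 for 8 (27.6%) and below 1 for 17 (58.6%), beside 28.1% and 31.2% of all genes kept, again not matched for depth. The median was -0.11, and -0.05 without the GC trend. Vegfa (3.11-fold, 2.97 to 3.26) and Ddit4 (2.03-fold, 1.93 to 2.13), both lower, are also known hypoxia targets. The transporter genes Slc7a3 for cationic amino acids (2.51-fold, 2.09 to 3.04) and Slc6a9 for glycine (2.39-fold, 2.18 to 2.61) were lower, as was the transaminase gene Gpt2 (1.58-fold, 1.51 to 1.65). Higher were Gdf15, a secreted stress hormone (1.64-fold, 1.37 to 1.97), and Shmt1, the cytosolic partner of Shmt2 (1.57-fold, 1.44 to 1.72).

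**Figure D3:**
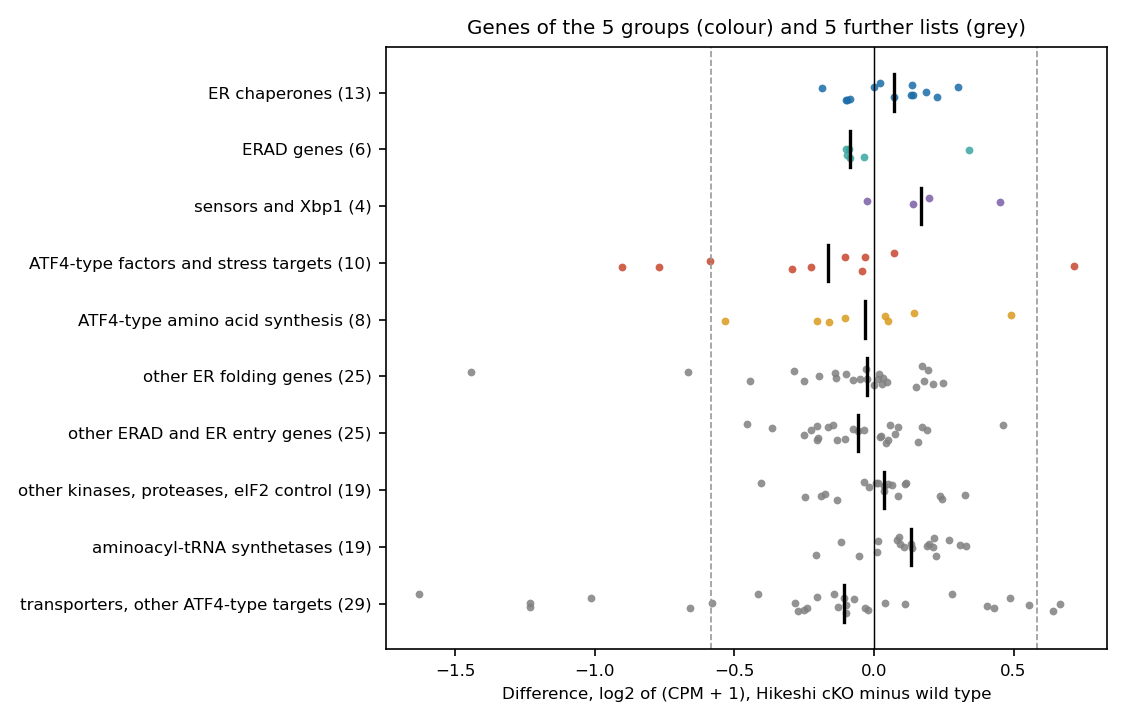
Difference of each kept gene on the log2(CPM + 1) scale, library labelled cKO minus library labelled wild type, for the 5 groups of members (colour) and 5 further lists (grey), with the number of genes in brackets, the median as a bar and dashed lines at 1.5-fold. The synthetase list lies mostly above 0 (median 0.13), and the widest spread is that of the transporters and other targets.

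GC content of the transcripts moved with the differences. Over all genes with a value (12456), Spearman's rho between GC content and the difference was -0.1996, and over the 41 members it was -0.66 (Pearson -0.62). These are correlations across genes of the same pair of libraries, and genes are not independent. Within the 13 chaperones rho was -0.79 and within the 18 ATF4-type genes -0.69. Chac1 (57.4% GC), Trib3 (59.9%) and Cebpb (67.2%) lay at the GC-rich end, and Hsp90b1 (42.7%) and Hspa13 (43.2%) at the GC-poor end. With the trend of all genes removed, Chac1 had a difference of -0.81 and Trib3 -0.66, both still past 1.5-fold, and Cebpb one of -0.41, no longer past it. Atf3 (51.1% GC) had 0.74, Hspa5 0.31 and Eif2ak3 0.49, while Hsp90b1 went from 0.23 to 0.13 and Hspa13 from 0.19 to 0.10. The remaining part of GC content in these values was not tested.

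**Figure D4:**
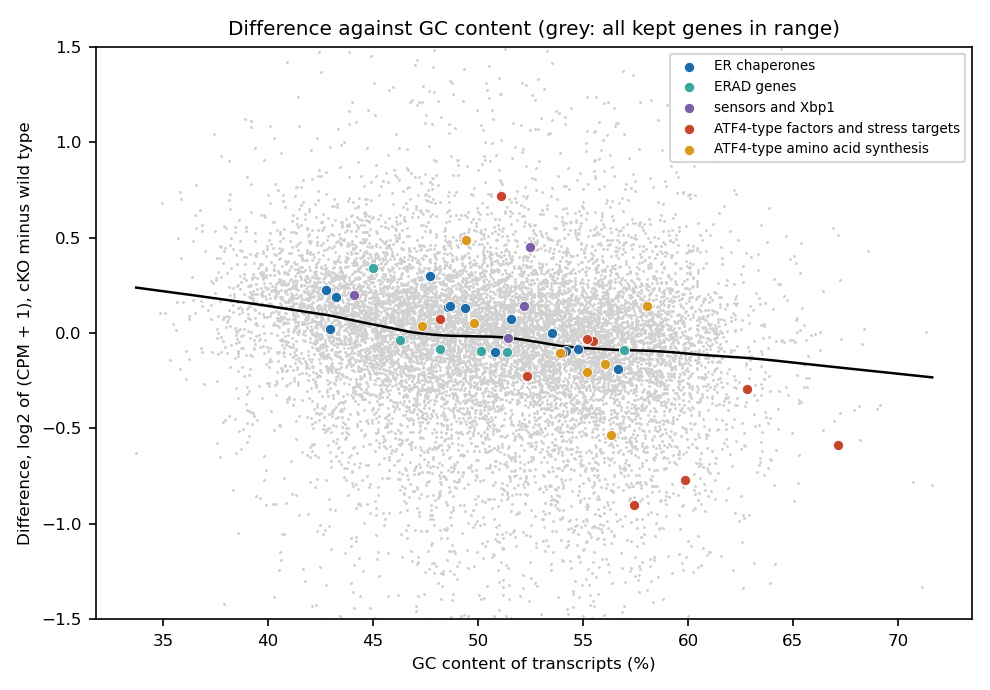
Difference on the log2(CPM + 1) scale against the mean GC content of a gene's transcripts (percent), with all genes kept in grey, their smoothed trend as a line and the members in colour. Members of high GC content, such as Cebpb at 67.2%, mostly lie below 0, and the members slope more steeply than the grey cloud.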

How the data were processed

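Total RNA of neural stem cells was sequenced in 1 library per genotype label, and table columns were assigned by the genotype they name. The submitters' processing notes name the genome build GRCm38.p6 (aligner, counter, annotation, strand setting: not given in the sources used here). Per gene, the authors deposited an estimated count of reads, FPKM, TPM and a signal, the normalized read count, all named per the file headers.

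Estimated counts were rounded to whole reads and divided by column totals to give CPM. Genes with at least 1 CPM in at least 1 library were kept (12618). Differences are log2 ratios after adding 1 CPM, which understates low genes, and ratios in the text are of CPM without it. Intervals are exact conditional binomial (Clopper-Pearson, 95%), and PCR copies of reads, not marked here, can make them too narrow. The interval code was tested on simulated data. GC content is the mean over GENCODE M21 transcripts (98.7% of genes kept, all members), and its trend was a lowess fit (statsmodels 0.14.6). Python 3.11.15, edgeR 4.0.16 and DESeq2 1.42.0 were used, the last pair for scaling factors only. Members and lists were chosen with earlier results of these data known. Named genes were the members, the other eIF2alpha kinases, genes of the 5 further lists at least 1.5-fold apart, and a few facts of the libraries.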

Additional observations from a re-analysis of the deposited data

How the results depend on the processing

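Each median, count and member difference was recomputed under 12 alternatives, except Nupr1, which the 5 CPM filter removed (11). With 5 CPM added in place of 1, which shrinks low genes by construction, the members at least 1.5-fold higher went from 1 to 0 and those lower from 3 to 1 (Chac1), both within the ATF4-type factors and targets. Under that setting the further ER folding genes at least 1.5-fold lower went from 2 to 1 and the transporters and other targets at least 1.5-fold higher from 2 to 1. With the authors' TPM or FPKM the further ER folding genes lower also numbered 1. Cebpb lost its place past 1.5-fold under 5 of 12 alternatives (5 CPM added, the authors' normalized read count, TMM, median of ratios and GC trend removed), with values from -0.61 to -0.41 over all 12. Chac1 stayed past it under all 12 (-0.93 to -0.75). Among members and genes of the further lists, removal of the GC trend moved 28 single-gene differences outside their counting intervals. With 5 CPM added 1 was so moved, and no other alternative moved any. Of 41 members 37 kept their sign under all alternatives run. The exceptions were Atf4, Canx and Ppp1r15a with the GC trend removed and Hyou1 with FPKM. The median of the ATF4-type synthesis genes also changed sign with the GC trend removed. No replicate could be left out and no genotype effect could be separated from the library, from sex-linked expression or from cell makeup. No paired analysis was possible because each group had 1 library. Derl3, Ern1 and Nupr1 were limited by depth.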

Other observations

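The deposited read counts and FPKM together give the transcript length that the authors' quantification implied for each gene. What moves the ratio of that length between libraries was not tested. Over 11194 genes with FPKM of at least 1 in both libraries, the central 95% of this ratio, scaled to its median, ran from 0.952 to 1.053. All 41 members with a value lay inside, from 0.986 for Edem1 to 1.037 for Ddit3. The implied length of Ddit3, the gene whose counts nearly equal those of Mbd6, was thus the one that differed most between the libraries among the members.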
